A study of Saccharomyces cerevisiae with 4 samples.

Results

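The ribosomal protein genes RPL1A to RPL33B encode most proteins of the large subunit of the cytosolic ribosome of Saccharomyces cerevisiae. They were chosen by systematic name, and all 57 were among the 5799 genes of the table, each with a value on all 4 arrays. They form 32 families, 25 with a pair of paralogous copies, A and B, and 7 with a single gene. RPL29 and the proteins numbered above RPL33 are not members and are given further on as other large-subunit proteins.

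The study asked how yeast responds to acid stress. Acid-treated cells came from 50 ml of culture exposed to 30 mM acetic acid for 2 h, and untreated cells were grown alike. Both were strain BY4741, a haploid laboratory strain labelled MATa, his3Δ1, leu2Δ0, LYS2, met15Δ0, in YPD rich medium at 28 °C to an absorbance of 0.6. The URA3 allele is written ura3Δ0, ura3Δ1, ura3Δ2 and ura3Δ3 on the 4 arrays although the strain name is the same on all. Each two-colour array carried acid-treated and untreated RNA. Cy5 marked the acid-treated RNA on 2 arrays, called the first and the second Cy5 array after their replicate numbers, and Cy3 marked it on 2 more, the first and the second Cy3 array. Per-array values below follow the sequence first Cy5, second Cy5, first Cy3, second Cy3. The series' design text describes 4 biological replicates; with so few arrays, small differences cannot be resolved, and if same-numbered arrays shared RNA, n would be 2.

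The large subunit joins amino acids at its peptidyl transferase centre and releases the growing chain through a tunnel. In yeast most of its proteins are made from duplicated genes, the copies of which encode the same or nearly the same protein. Transcription of these genes is tied to growth through Rap1, Fhl1, Ifh1 and Sfp1 under TORC1 and protein kinase A, and it is known to fall briefly under many stresses. Spots of such similar copies can take up RNA of both (cross-hybridisation), and the probe sequences were not analysed here, so the ratio of a single copy is uncertain throughout.

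Values are log2 ratios of acid-treated over untreated cells, with base 2 taken as an assumption. The direction is likely rather than stated: of 8 targets of the weak-acid factor Haa1 looked up, the 5 tested all rose, by 2.54 to 5.41 on the log2 scale. If the ratios ran the other way, every sign below would turn. Array medians over all genes lay between -0.028 and 0.01, so a ratio is relative to the typical gene, and a change shared by all transcripts would not show. The first Cy3 array stood apart, with the widest spread over all genes (SD 1.05, against 0.70 to 0.81 on the others) and the lowest correlations with acid in Cy5 (r = 0.41 and 0.47, across genes).

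The transcripts of the large-subunit proteins stayed close to those of the typical gene, with a small shift below 0. Member means ran from -0.68 for RPL24B to 0.31 for RPL26A, that is from 0.626-fold to 1.24-fold. The median of the 57 means was -0.24, against -0.035 over the 5291 genes tested. Without the second Cy5 array the members' median was -0.13. In the limma fit over all genes, 0 of 57 members passed an adjusted p of 0.05, where 10.9% of all genes did (2.02% as lower, 8.85% as higher). The smallest adjusted p of a member was 0.0627, for RPL24B. Among the 575 genes called, the one nearest to 0 had a mean 0.54 from 0, and most members were nearer to 0 than that, so changes of their size were hardly detectable with 4 arrays. RPL24B passed as lower with a dye term (adjusted p = 0.0485) and with a replicate block (adjusted p = 0.0471), where 13.8% and 13.9% of all genes were called. The consensus correlation of the block was below 0 (-0.109). With same-numbered arrays averaged, as if n were 2, RPL24B did not pass (limma adjusted p = 0.108). Leaving out any 1 of the other 3 arrays gave 0 calls among members. Without the first Cy3 array, the array that stands apart, 16.5% of all genes and 3 members passed, the members all lower: RPL24B (-0.79, adjusted p = 0.0306), RPL30 (-0.55, adjusted p = 0.0419) and RPL24A (-0.73, adjusted p = 0.0438).

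Of the 57 means, 42 lay below 0 and 15 above, or 73.7% below, against 53.3% of all genes tested. On all 4 arrays 24 members lay below 0 (42.1%), where 19.3% of genes with 4 values did, and 6 lay above 0 on all 4 (10.5%), where 22.9% did. At an unadjusted p under 0.05 there were 14 lower members (24.6%, against 12.2% of all genes) and 0 higher ones (against 17.7%). The count of 14 lower members depends on the arrays and on n. It was 6 (10.5%, against 9.78% of all genes) without the second Cy5 array and 4 (7.02%, against 7.78%) without the second Cy3 array. With same-numbered arrays averaged, as if n were 2, it was 7 (12.3%, against 12.6% of all genes). In these 3 fits the members' share was close to that of all genes. Without the first Cy5 array the count was 10 (17.5%, against 8.88% of all genes). Without the first Cy3 array it was 15 (26.3%, against 14.3%). The counts describe a group whose members share sequence and regulation, and no test of the group was made.

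The 95% limma intervals of the single members had a median half-width of 0.36. A single gene with a mean of -0.24, the members' median, and an interval of that width could not be told from 0. The half-width belongs to the mean of 1 gene and does not measure the uncertainty of the members' median. The 95% interval of the limma fit lay within a 2-fold change in either direction for 53 of 57 members (93.0%), against 69.4% of all genes tested. This share depends on the size of the mean as well as on the width of the interval. The 4 exceptions were RPL24A, RPL24B, RPL31B and RPL15A. The SD of the means over members was 0.26, against 0.68 over all genes, and the median SD of a member over arrays was 0.21, against 0.36. A mean at least 0.5 from 0 was found for 6 members (10.5%), where 29.5% of all genes had one.

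The median of the members lay below 0 on each array. The member medians were -0.13, -0.24, -0.16 and -0.27, and 43, 40, 37 and 41 members lay below 0. Within the dye orientations, the median was -0.20 with acid in Cy5 and -0.14 with acid in Cy3. With a dye term in the fit, 0 members passed for the dye (smallest adjusted p = 0.67, and 0 at an unadjusted p under 0.05), where 0.227% of all genes did at the adjusted and 7.03% at the unadjusted threshold. Opposite signs in the dye orientations were found for 4 members, among them RPL10, RPL20A and RPL22B, against 8.21% of all genes with 4 values.

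**Figure D1:**
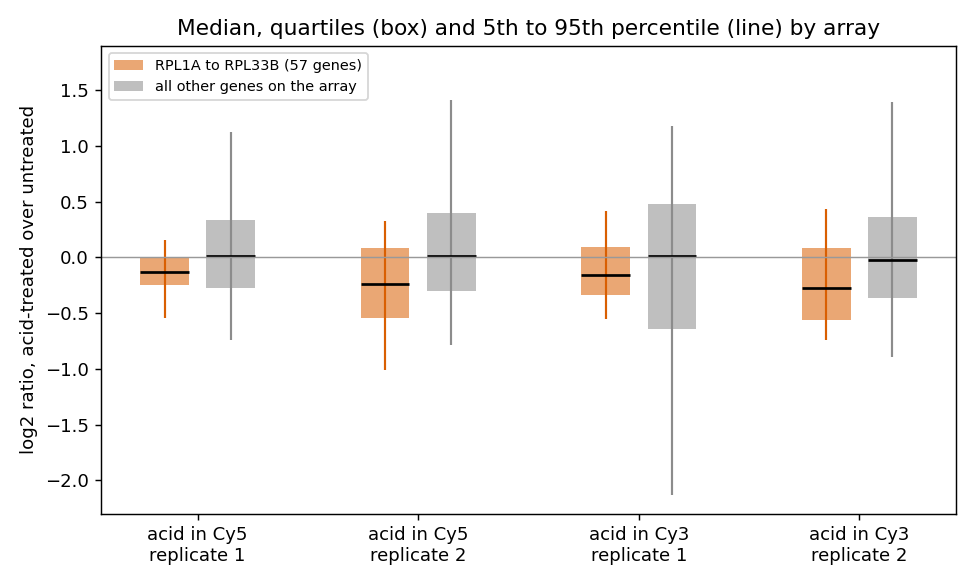
Log2 ratio of acid-treated over untreated cells (vertical axis) on each array, for the 57 genes RPL1A to RPL33B (orange) and all other genes (grey); boxes are quartiles, black bars medians and lines the 5th to 95th percentile. The orange medians lie between -0.27 and -0.13, below the grey ones on all 4 arrays, and the orange lines are shorter than the grey ones.

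The order of members was only partly shared between arrays. Across the 57 members, Pearson's r between arrays ran from -0.03, between the first Cy5 array and the second Cy3 array, to 0.51, between the arrays with acid in Cy3. Over all genes the same pairs had 0.67 and 0.62. Between arrays of the same number, the members' r was 0.47 for the first arrays and 0.42 for the second. It was 0.26 between the second Cy5 and the first Cy3 array, and 0.29 between the arrays with acid in Cy5. Whether same-numbered arrays shared RNA was not tested. These correlations are across genes, which are not independent, and many of the points are copies of each other.

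For description, each member was placed in 1 position group, although a protein can touch more than 1 position. The group medians depend on this placement. Among these groups, the lowest median was at the face that meets the small subunit. RPL24, which joins the subunit late and helps to bridge it to the small subunit, had the lowest family mean, -0.64. RPL24B (YGR148C) had -0.57, -1.17, -0.34 and -0.63 (mean -0.68 ± 0.35, SD, n = 4, as for all means below). RPL24A (YGL031C) had -0.48, -1.17, -0.21 and -0.56 (-0.60 ± 0.40, adjusted p = 0.0969 in limma). Both copies were below 0 on every array and lowest on the second Cy5 array. RPL30 (YGL030W), whose protein binds its own transcript and holds back its splicing, had -0.45, -0.54, -0.33 and -0.67 (-0.50 ± 0.15, adjusted p = 0.0733). RPL24A and RPL30 are neighbouring genes. RPL23, another bridge protein, had means of -0.37 ± 0.22 for copy A and -0.27 ± 0.32 for copy B. All 5 members placed at this position, RPL30 and the copies of RPL23 and RPL24, had means below 0, with a median of -0.50.

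At the stalks and the central protuberance, 6 of 7 members lay below 0, with a median of -0.36. The group medians on the arrays were -0.19, -0.30, -0.34 and -0.52. RPL11, which carries the smallest rRNA of the subunit into place together with RPL5, was low in both copies. RPL11A (YPR102C) had -0.29, -0.59, -0.50 and -0.73 (-0.53 ± 0.18, adjusted p = 0.0691), and RPL11B (YGR085C) had -0.27, -0.75, -0.34 and -0.75 (-0.53 ± 0.26, adjusted p = 0.0844). Its partner RPL5 (YPL131W), a single-copy gene, lay above 0 on every array, with 0.031, 0.24, 0.15 and 0.37 (0.20 ± 0.14, adjusted p = 0.365). RPL1, the protein of the mobile stalk near the tRNA exit site, had means of -0.42 ± 0.20 for copy A and -0.36 ± 0.27 for copy B. RPL12, at the base of the other stalk, had -0.24 ± 0.093 and -0.25 ± 0.11.

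Proteins at the peptidyl transferase centre and the tRNA sites had the group median nearest to 0, 0.042, with 3 of 7 means below 0. By array, the group medians were -0.082, 0.22, -0.079 and -0.12, and 5, 1, 5 and 4 members lay below 0. The median was thus above 0 on the second Cy5 array alone. RPL3 (YOR063W), which reaches towards the catalytic centre, had -0.22, 0.38, 0.15 and 0.17 (0.12 ± 0.25). RPL10 (YLR075W), a late-joining protein near the tRNA sites, had 0.14, 0.31, -0.16 and -0.12 (0.042 ± 0.22), above 0 with acid in Cy5 and below 0 with acid in Cy3. RPL28 (YGL103W), in which mutations give resistance to cycloheximide, was the low member, with -0.25, -0.51, -0.14 and -0.47 (-0.34 ± 0.18, adjusted p = 0.169). The copies of RPL2 and RPL4 had means between -0.072 and 0.086.

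At the exit of the tunnel, 7 of 9 members had means below 0 (median -0.15), but the members differed widely. The group medians on the arrays were -0.15, -0.37, 0.19 and -0.14, and 7, 7, 4 and 7 members lay below 0. On the first Cy3 array the median was thus above 0. RPL26A (YLR344W) had the highest mean of all members, with 0.53, 0.22, 0.42 and 0.064 (0.31 ± 0.21, adjusted p = 0.211), and RPL17A (YKL180W) had 0.042, 0.45, 0.43 and 0.19 (0.28 ± 0.20, adjusted p = 0.245). RPL31B (YLR406C) was second lowest, with -0.53, -0.11, -0.77 and -1.16 (-0.64 ± 0.44, adjusted p = 0.0933). RPL25 (YOL127W), a single-copy gene whose protein is the docking site of factors that meet the nascent chain, had -0.044, -0.37, -0.26 and -0.56 (-0.31 ± 0.21, adjusted p = 0.215).

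Of the 29 members at other positions, 21 lay below 0, with a median of -0.22. RPL22A (YLR061W) had -0.17, -0.57, -0.40 and -1.03 (-0.54 ± 0.36, adjusted p = 0.11). RPL32 (YBL092W), a single-copy gene, had -0.36, -0.70, -0.18 and -0.56 (-0.45 ± 0.23, adjusted p = 0.114). The families RPL7 and RPL8, needed for early steps of pre-rRNA processing, had among the highest family means, 0.20 ± 0.061 and 0.29 ± 0.15. RPL8A (YHL033C) had 0.070, 0.26, 0.32 and 0.54 (0.30 ± 0.19, adjusted p = 0.216), RPL8B (YLL045C) had 0.089, 0.35, 0.32 and 0.34 (0.28 ± 0.13, adjusted p = 0.22), and RPL7A (YGL076C) had 0.20, 0.32, 0.047 and 0.28 (0.21 ± 0.12, adjusted p = 0.328). RPL7B (YPL198W), at 0.089, -0.029, 0.48 and 0.19 (0.18 ± 0.22), was the sole copy of these families with an array below 0.

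Grouped by conservation, 26 of 30 genes of proteins without a counterpart in bacteria lay below 0 (median -0.25). Of the 27 genes whose protein is also found in bacteria, 16 lay below 0 (median -0.15). By array, the medians were -0.14, -0.48, -0.18 and -0.27 for genes without a bacterial counterpart. For the other genes they were -0.12, -0.01, -0.14 and -0.27. The groups thus lay apart mainly on the second Cy5 array. In the means with acid in Cy3 the order was reversed, with medians of -0.13 and -0.18. Whether the shares below 0 differ was not tested.

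**Figure D2:**
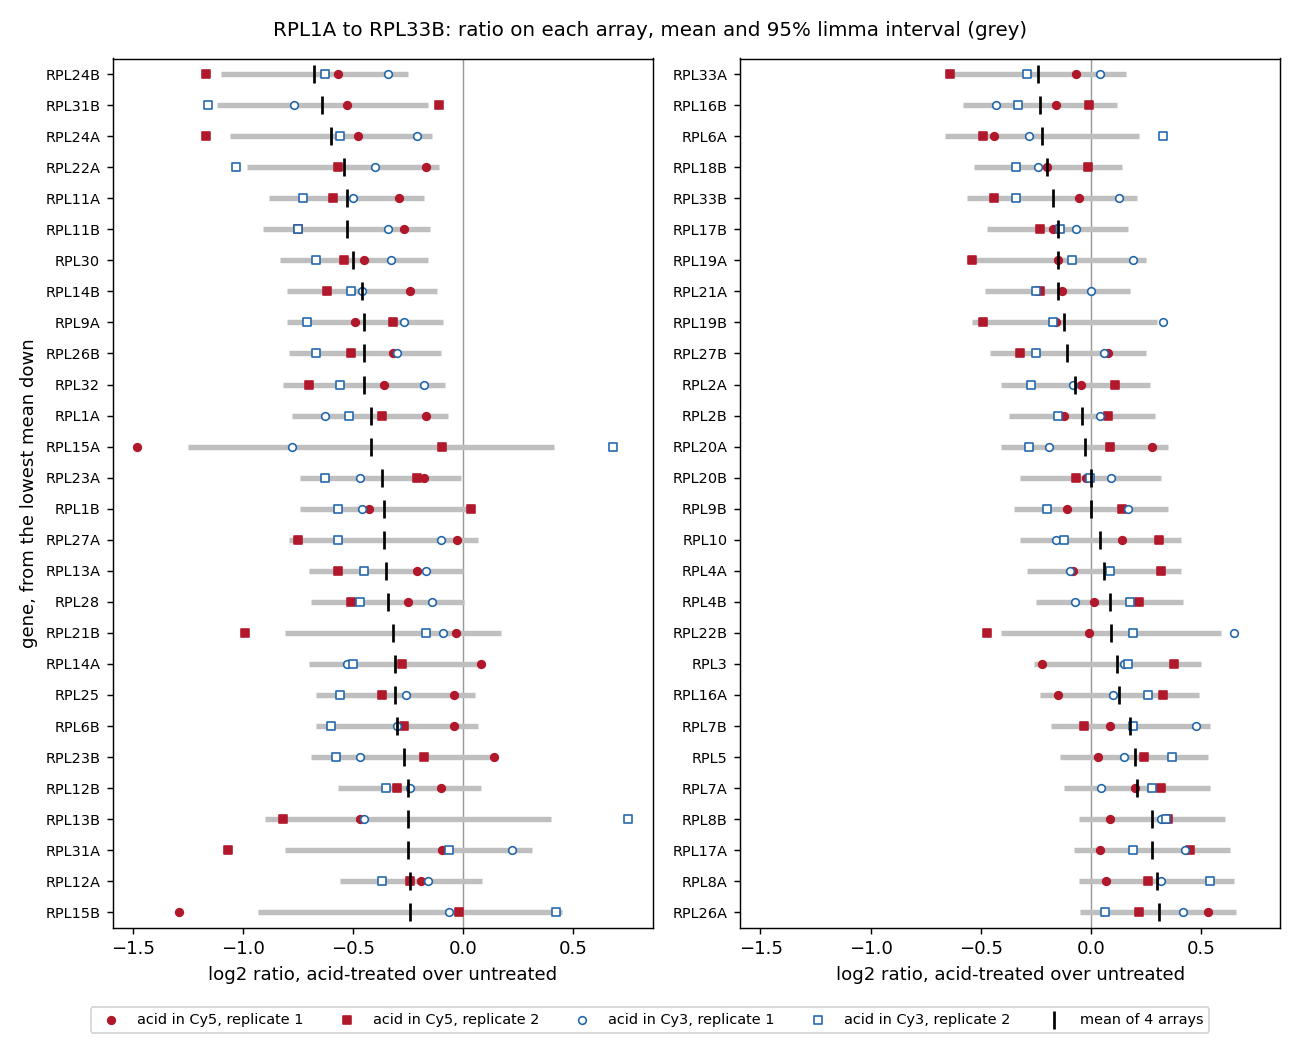
Log2 ratio of acid-treated over untreated cells (horizontal axis) for 56 of the 57 genes, with filled symbols for acid in Cy5, open symbols for acid in Cy3, a black bar for the mean of the 4 arrays and a grey band for the 95% limma interval. Means run from -0.68 (RPL24B) to 0.31 (RPL26A), and RPL15A, RPL15B, RPL13B and RPL31A are spread most widely over the arrays.

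A few members varied more between arrays than the rest. By Dixon's criterion 1 array stood apart for 2 members, RPL8B and RPL21B, against 8.19% of genes with 4 values. The SD over arrays exceeded 0.5 for 4 members: RPL15A, RPL15B, RPL13B and RPL31A. RPL15A (YLR029C) had -1.48, -0.096, -0.78 and 0.68, and RPL15B (YMR121C) had -1.29, -0.021, -0.064 and 0.42. Both copies were lowest on the first Cy5 array and highest on the second Cy3 array. RPL13B (YMR142C) had -0.47, -0.82, -0.45 and 0.75, above 0 on the second Cy3 array alone. Of the 228 values of all members, 7 were at least 1 from 0, each in a different gene and all below 0. The shares of all genes beyond these cuts of 0.5 and 1 were not counted. The median SD over arrays was 0.36 for all genes, so such spreads need not be unusual on these arrays.

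The copies of a family mostly had similar ratios. The mean ratios of copies A and B differed by a median of 0.10 over the 25 pairs, and for 18 pairs by less than 0.2. Between genes of different families, over 1200 pairs of the same 50 genes, the median difference of the means was 0.25. On a single array the medians were 0.16 between copies and 0.33 between families. In 16 pairs both copies had means below 0, in 3 both were above 0, and in 6 the signs differed. Neither copy was higher as a rule, since the mean of copy A was above that of copy B in 13 pairs and below it in 12. Across the 25 pairs, the means of A and B had Pearson's r = 0.42, as a description of spots that can share RNA. On single arrays r was 0.67 and 0.57 with acid in Cy5, but 0.17 and 0.24 with acid in Cy3. The part of the dye in this was not tested. Closeness of the copies cannot be told apart from cross-hybridisation with these values.

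The closest pairs were RPL11, with A minus B of -0.026, 0.16, -0.15 and 0.022 (mean 0.0013 ± 0.13), and RPL12, with -0.088, 0.057, 0.080 and -0.023 (0.0065 ± 0.077). In 8 pairs A minus B had the same sign on all 4 arrays, or 32.0% of pairs, against 38.5% of pairs of genes from different families. An exact permutation test over 4 arrays cannot give a two-sided p below 0.125, which became 0.391 after adjustment over the 25 pairs, so no pair could pass.

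RPL26 had the largest difference and a small spread. A minus B was 0.84, 0.72, 0.72 and 0.74 (mean 0.76 ± 0.058, exact permutation p = 0.125). RPL26A was above 0 on every array, whereas RPL26B (YGR034W), with -0.32, -0.51, -0.30 and -0.67 (-0.45 ± 0.18), was below 0 on every array. RPL9 had an A minus B of -0.39, -0.46, -0.44 and -0.51 (-0.45 ± 0.051, exact permutation p = 0.125). RPL9A (YGL147C) had -0.49, -0.32, -0.27 and -0.71 (-0.45 ± 0.20), while RPL9B (YNL067W) scattered about 0 with -0.11, 0.14, 0.17 and -0.20. In these families the gap between the copies was nearly the same on all arrays, although the ratio of each copy varied from array to array.

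RPL17 had an A minus B of 0.21, 0.68, 0.50 and 0.33 (0.43 ± 0.20, exact permutation p = 0.125), with RPL17B (YJL177W) at -0.17, -0.23, -0.066 and -0.14. RPL22 differed by -0.16, -0.10, -1.05 and -1.22 (-0.63 ± 0.58, exact permutation p = 0.125), which was -0.13 with acid in Cy5 and -1.13 with acid in Cy3. The Rpl22 protein is known to hold back the splicing of the RPL22B transcript. RPL22B (YFL034C-A) had -0.007, -0.47, 0.65 and 0.19 (0.090 ± 0.47). The gap between the copies of RPL22 was thus wide in 1 dye orientation alone, and the part of the dye in it was not tested. In other pairs 1 array had the opposite sign to the other 3. RPL31 had an A minus B of 0.43, -0.96, 0.99 and 1.09, below 0 on the second Cy5 array alone. Its means were also far apart by dye orientation, -0.26 with acid in Cy5 and 1.04 with acid in Cy3. The part of the dye in this was not tested either. RPL13 had 0.26, 0.26, 0.28 and -1.21, below 0 on the second Cy3 array alone.

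**Figure D3:**
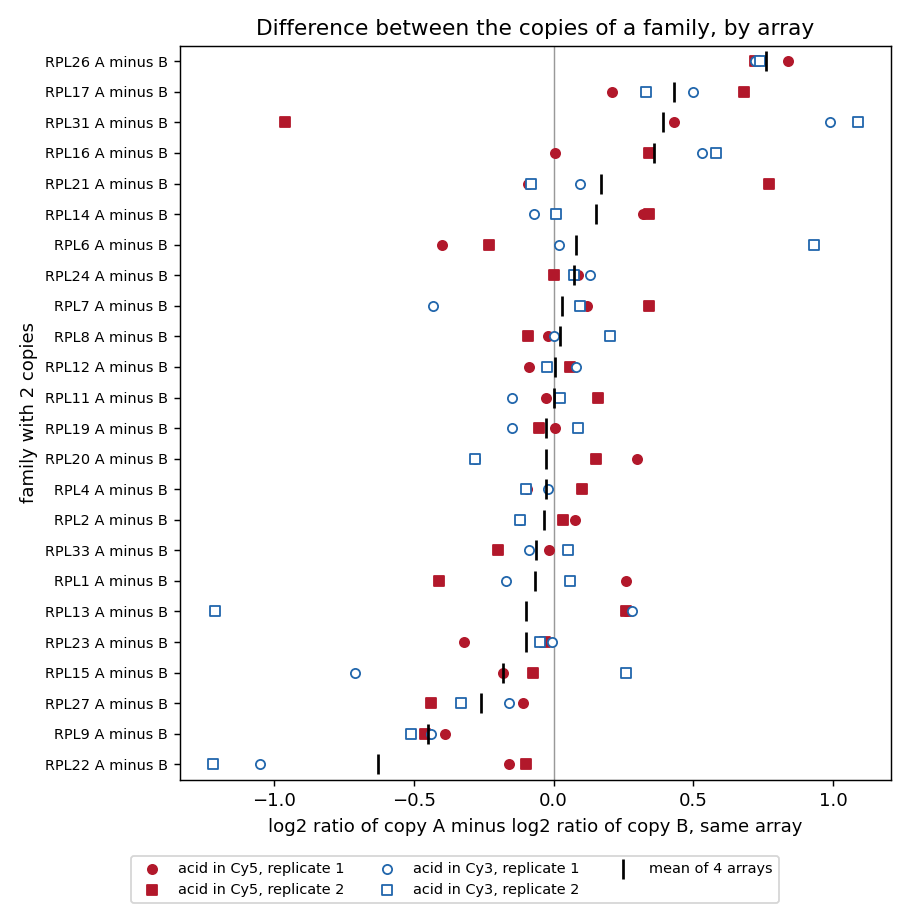
Difference between the log2 ratios of copy A and copy B on the same array (horizontal axis) for 24 of the 25 families with a pair of copies, with filled symbols for acid in Cy5, open symbols for acid in Cy3 and a black bar for the mean. The 4 symbols of RPL26 lie together between 0.72 and 0.84 and those of RPL9 between -0.51 and -0.39, while those of RPL22, RPL31 and RPL13 are spread out.

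The means of most genes of the rest of the ribosome also lay below 0. Of 20 other large-subunit genes tested, 17 had means below 0 (85.0%, against 53.3% of all genes), with a median of -0.34. None passed (5 lower at an unadjusted p under 0.05 in limma). Their array medians were 0.055, -0.59, -0.026 and -0.31, and 8, 18, 10 and 17 genes lay below 0. The shift thus lay mainly on the second arrays. On all 4 arrays 4 of these genes lay below 0 (20.0%, against 19.3% of genes with 4 values). The smallest p values belonged to RPP1A, a protein of the acidic stalk and the neighbour of RPL13A (0.088, -0.80, -1.02 and -1.07, mean -0.70 ± 0.54, adjusted p = 0.102), and to RPL42B (-0.059 on the first array, mean -0.59 ± 0.41, adjusted p = 0.104). Of 53 small-subunit genes, 45 had means below 0 (84.9%), with a median of -0.24, and 0 passed (14 lower and 1 higher at an unadjusted p under 0.05). Their array medians were -0.12, -0.30, -0.14 and -0.29. Of the 52 with 4 values, 29 lay below 0 on all 4 arrays (55.8%). RPS22A had the smallest p of these, with -0.57, -0.58, -0.40 and -0.90 (-0.61 ± 0.21, adjusted p = 0.0509), and RPS1A the next (0.64 ± 0.29, adjusted p = 0.0593).

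Genes of factors that build the large subunit lay on both sides of 0. Of 42 assembly factor genes, 18 had means below 0, with a median of 0.081, and 0 passed in limma (3 higher and 3 lower at an unadjusted p under 0.05). The list median was -0.098 with acid in Cy5 and 0.17 with acid in Cy3. On the arrays 26, 27, 12 and 17 of these genes lay below 0, so the side of 0 depended on the dye orientation. NOG1, a GTPase of the precursor particle, had 0.59 ± 0.40 (adjusted p = 0.0995), and REI1, a cytoplasmic maturation factor, had -0.59 ± 0.47 (adjusted p = 0.124). Of 5 genes of chaperones dedicated to single large-subunit proteins, 4 lay above 0 and 0 passed (3 higher at an unadjusted p under 0.05). SYO1, the chaperone of RPL5 and RPL11, had 0.20, 0.47, 0.90 and 0.30 (0.47 ± 0.31, adjusted p = 0.127), and ACL4, that of RPL4, had 0.33 ± 0.084 (adjusted p = 0.158).

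Of 9 tested regulators of these genes or of ribosome synthesis, 1 passed (11.1%, against 10.9% of all genes). STB3, a repressor that binds promoters of ribosome synthesis genes, rose, with 0.63, 0.78, 0.85 and 0.96 (0.81 ± 0.14, 1.75-fold, limma adjusted p = 0.0171). Its call was lost when the first Cy5 array was left out (adjusted p = 0.0635), or the second Cy5 array (0.073), or the second Cy3 array (0.0984), with same-numbered arrays averaged (0.0591) or against a minimum fold of 1.5 (0.946). FHL1, a transcription factor at ribosomal protein promoters, had -0.81, -0.96, -0.25 and -0.48 (-0.62 ± 0.32), with an adjusted p of 0.0687, and passed without the first Cy3 array (-0.75, adjusted p = 0.0261), after quantile normalization (0.048), when a dye term was added (0.0442) and under the replicate block (0.0488). Its partner IFH1 had -0.065 ± 0.36 and RAP1 had 0.30 ± 0.40.

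**Figure D4:**
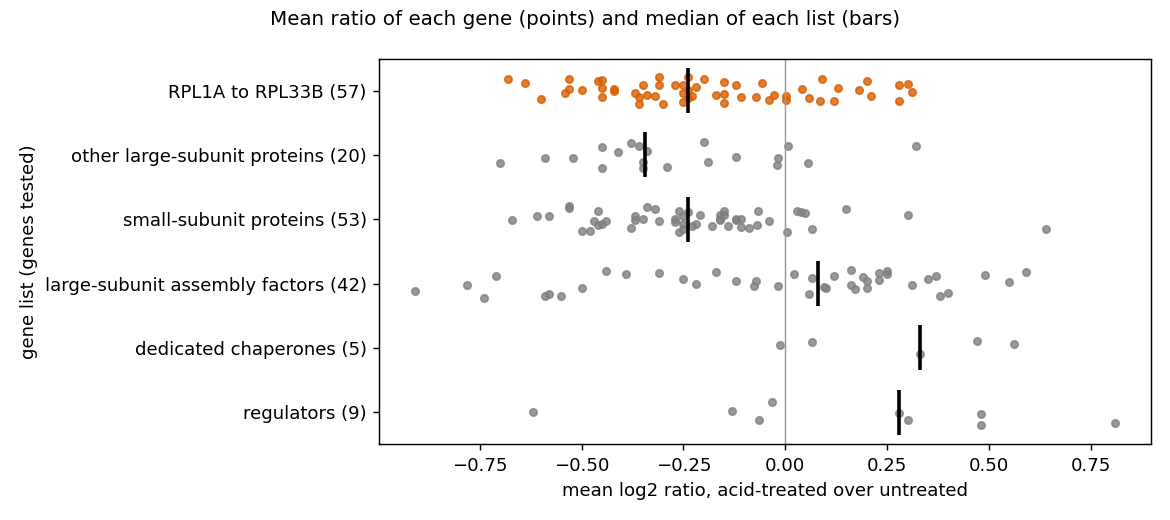
Mean log2 ratio of acid-treated over untreated cells (horizontal axis) for each tested gene (points) of RPL1A to RPL33B and of 5 other gene lists, with the median of each list as a bar. The medians of the 3 lists of ribosomal proteins lie between -0.34 and -0.24, and those of assembly factors, chaperones and regulators between 0.081 and 0.33. With acid in Cy5 alone, which is not drawn, the assembly factor median was -0.098.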

How the data were processed

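Acid-treated and untreated RNA was compared on 4 two-colour arrays after indirect labelling, per the labels' protocols. The authors deposited signed values for the genes of each array, read here as log2 ratios of its channels. How the spots were scanned, corrected, normalized and filtered is not given in the sources used here. Ratios of all arrays correlated above 0 and were used as deposited. The members, the gene lists and the tests were chosen with earlier results of these data known.

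Genes with values on at least 3 arrays (5291) entered an intercept-only model of limma 3.58.1 under R 4.3.3 with moderated variances; tests were two-sided and p-values adjusted by Benjamini-Hochberg over all genes and a threshold of 0.05; the fit was tested on simulated data. A second fit had a dye term. Alternatives were a replicate block, averaged same-numbered arrays, centring, scaling, quantile normalization, other minimums of values, robust or no shared variance, a minimum fold of 1.5 and each array left out. Deviations from the mean of each dye orientation correlated at 0.252 across genes between same-numbered arrays. With 2 arrays in each orientation this is 1 comparison, which cannot decide whether same-numbered arrays shared RNA. The main fit treated the arrays as independent, as the series' design text describes them, and its p-values rest on that.

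Any member could be named; per-array values were given for the 6 lowest and 6 highest means, single-copy genes and the 4 widest and 2 closest pairs, and additionally for members chosen after their values were seen (RPL7B, RPL13B, RPL15A, RPL15B, RPL22B). RPL31A, RPL21B and the pairs RPL13 and RPL31 were likewise singled out afterwards. From other lists, called genes were named or, with 0 called, the 2 genes of smallest p, and FHL1, IFH1 and RAP1 in addition. Symbols came from the RefSeq table of assembly R64, which matched all 57 members. Not tested here were 4 other large-subunit genes, 4 small-subunit genes, 3 regulators, 2 assembly factors and 3 Haa1 targets. Values of 1 member are not reported here by name, and that member is counted in the totals.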

Additional observations from a re-analysis of the deposited data

Results flagged for a closer look

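On 2 of 57 members an array lay apart from the other 3 by Dixon's criterion, where chance gives about 1 in 20 and 8.19% of genes with 4 values met it. RPL21B had -0.99 on the second Cy5 array, against a mean of -0.097 on the others, and its copy RPL21A had -0.23 there. RPL8B had 0.089 on the first Cy5 array, against a mean of 0.34 on the others.

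Opposite signs in the dye orientations were found for 4 members, 3 of them given here, where 8.21% of genes with 4 values showed them. The difference of acid in Cy5 minus acid in Cy3 was 0.36 for RPL10, 0.42 for RPL20A and -0.66 for RPL22B. By the signs alone the difference was not tested; 0 of these 3 passed the dye term of the limma fit, with adjusted p of 0.75 for RPL10, 0.713 for RPL20A and 0.673 for RPL22B.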

How the results depend on the processing

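The number of members below 0 was 40 to 44 in all fits run, and their median lay between -0.27 and -0.13, the higher value without the second Cy5 array; leaving out arrays gave -0.25 to -0.13. Members called were 0 to 3 when arrays were left out, 1 with a dye term (729 of all genes called), 1 with the replicate block and 3 after quantile normalization (809 of all genes), and 0 in the other fits. RPL24B was called with the dye term, with the block, after quantile normalization and without the first Cy3 array (-0.68 with the dye term and the block, -0.79 without the first Cy3 array, -0.90 after quantile normalization, which added RPL11A at -0.62 and RPL30 at -0.62). The numbers share only a label and the block had a consensus correlation of -0.109; all genes called were 733 with it, against 575 without. All genes called were 204 without shared variance, 168 against a minimum fold, 383 with same-numbered arrays averaged and 197 to 825 with arrays left out. The median size of the difference between copies was 0.18 with acid in Cy5 alone, and 0.087 to 0.15 with arrays left out. Of 840 values of 56 members under alternatives, 15 turned direction, in 8 members with main means within 0.25 of 0. After scaling, RPL9B had -0.016, RPL20A 0.0036 and RPL20B -0.0089; after quantile normalization RPL9B had -0.019 and RPL20B -0.0081. With arrays left out the ranges were -0.46 to 0.11 for RPL15B, -0.03 to 0.11 for RPL4A, -0.056 to 0.068 for RPL9B, -0.047 to 0.11 for RPL10, -0.41 to 0.019 for RPL31A, -0.13 to 0.059 for RPL20A, -0.03 to 0.023 for RPL20B and -0.097 to 0.28 for RPL22B. The cause of these changes was not tested. The limit set by dim spots cannot be given from ratios.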
